A study of Mus musculus with 24 samples.

Results

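T cell and cytotoxic lymphocyte genes were followed in mouse kidney. The set holds 31 genes chosen by symbol: the CD3 chains and their kinases, CD4 and both CD8 chains, co-stimulatory and checkpoint receptors, the regulatory factor Foxp3, lineage transcription factors, granule and death effectors, and natural killer (NK) receptors. All 31 were found among the 23955 gene symbols with deposited counts, and all 31 passed the filter on low counts that left 15080 genes for testing. Membership is by symbol, with no threshold on values, and the set was drawn up with earlier results of these data known.

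RNA-seq was made from 24 kidney libraries in 6 groups of 4. Mice were labelled PLD4+/+ (WT below) or PLD4-/- (KO below), for phospholipase D4, an enzyme of lysosomes and endosomes found mainly in myeloid and B lineage cells. Each genotype was taken as control at day 0 (whether sham-operated is not stated), and after unilateral ureteral obstruction (UUO) at day 5 and day 10. UUO ties 1 ureter, which brings inflammation and scarring to the kidney. No other agent or allele is named for any group, and age, sex, strain, the design of the knockout allele and whether replicates are separate animals are not given in the labels. The p-values therefore measure the spread between these libraries, which may be in part technical.

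A T cell reads antigen through its receptor, whose CD3 and zeta chains carry the signal to the kinases Lck and Zap70. CD4 T cells help and direct other cells, CD8 T cells kill cells that display foreign peptide, and regulatory T cells, which depend on Foxp3, restrain both. NK cells kill without an antigen receptor, and they share perforin, granzymes, Nkg7 and several receptors with CD8 T cells. A normal kidney holds few lymphocytes, and T cells enter it after obstruction. In RNA from whole kidney, more cells of a type and more RNA per cell cannot be told apart.

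Total counts ran from 9800888 to 22542866 per library, and no pair of replicates agreed within sampling noise (36 pairs). Values below are counts scaled to library size (CPM, with the scaling factor of the trimmed mean of M-values, TMM), and where 4 values follow each other they are replicates 1 to 4. Pld4 itself checks the labels. At day 0 it stood at 5.1, 5.53, 7.89 and 8.25 CPM in the WT libraries and 12.6, 9.91, 8.68 and 6.7 CPM in the libraries labelled KO. Its groups overlapped there, with a log2 fold change KO over WT of 0.50 ± 0.29 (adjusted p = 0.438). By day 5 the values were 50.9, 47.6, 48.2 and 46.6 CPM in the WT libraries and 32.6, 18.9, 13.4 and 16.4 CPM in the libraries labelled KO. These day 5 groups did not overlap, and the difference was not called. On day 10 the values were 68.7, 85.4, 117 and 54.6 CPM in the WT libraries and 24.3, 36.1, 38.6 and 50.3 CPM in the libraries labelled KO, a log2 difference of -1.13 ± 0.27 (adjusted p = 0.0331). That day 10 call held in 22 of 33 alternative settings. Each of the libraries labelled KO thus held Pld4 counts. Since the part of the gene that was deleted is not given, these counts cannot check the genotype of the day 0 libraries, and KO stands for the label throughout.

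A pair of WT day 10 libraries stood apart. Replicates 2 and 3 had summed CPM of 3783 and 6424 over 8 neutrophil markers such as S100a8 and Ltf, against 27.3 and 26.0 in replicates 1 and 4. Their summed kidney markers, for example Lrp2 and Umod, were 343 and 1489 CPM, against 4059.5 and 8278. Replicate 3 also had the highest value of its group for 27 of the 31 members. Results of members and other named genes that rest on these libraries are mostly given with and without them. Counts of called markers of other cells are given with these libraries only, and the part of neutrophils in these libraries was not tested.

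**Figure D1:**
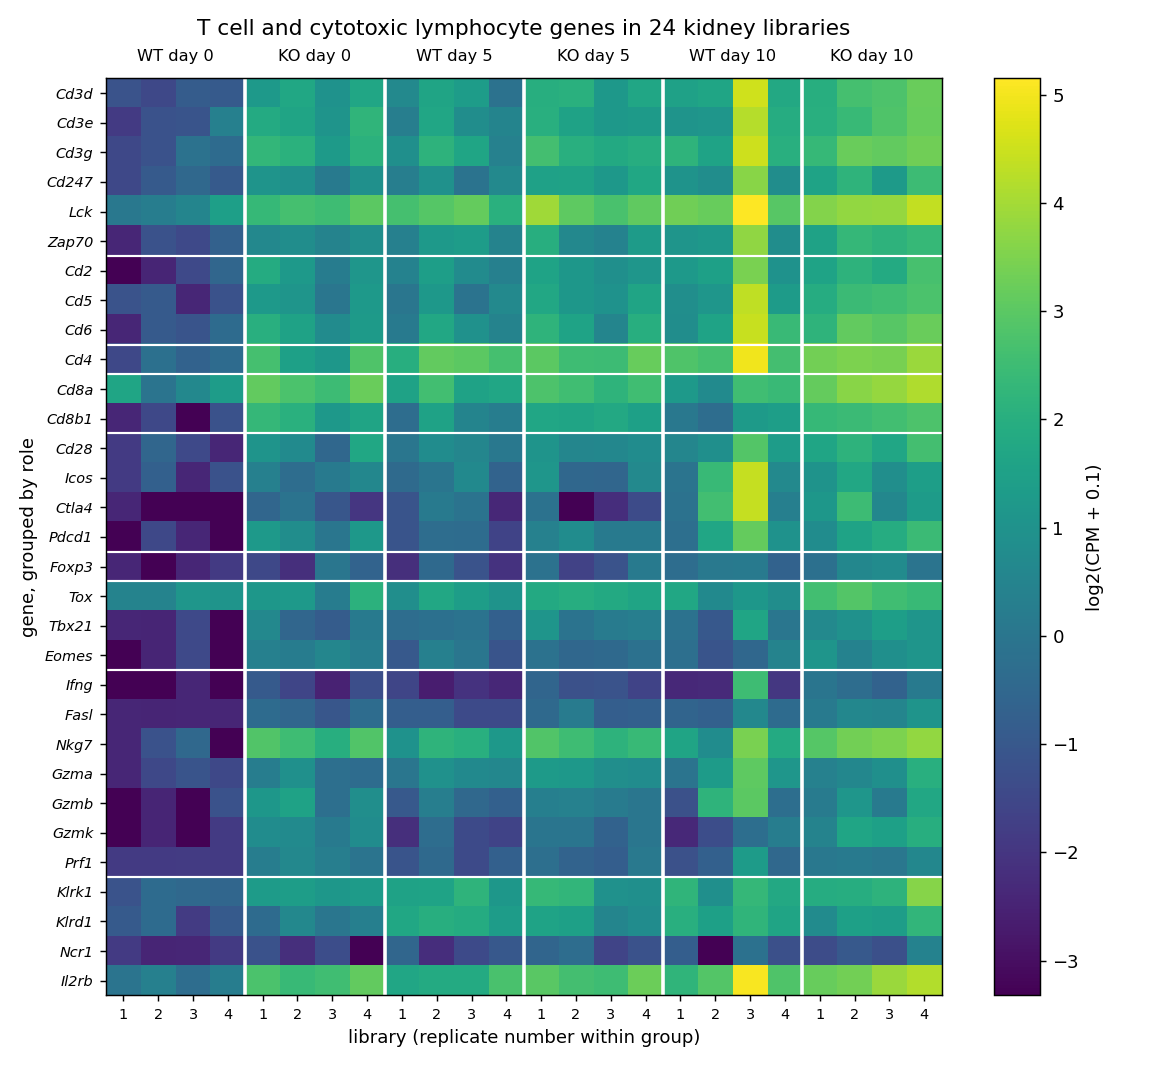
Heat map of the 31 genes (rows, by role) in the 24 libraries (columns, by group), as log2(CPM + 0.1). Dark colours are low values and bright colours high values. The WT day 0 block is the darkest for nearly every gene and the KO day 0 block is brighter. WT day 10 replicate 3 is the brightest library for the CD3 chains, Cd4, Ctla4 and Icos but not for Cd8a or Tox.

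The first question was whether the genotypes differed before any obstruction. At day 0 T cell and cytotoxic genes were higher in the libraries labelled KO: 20 of the 31 passed the threshold (edgeR quasi-likelihood test, Benjamini-Hochberg adjusted p under 0.05 over 15080 genes), all higher, and 0 were lower. Of all genes tested, 3.65% were called higher. The groups did not overlap, all KO libraries above all WT libraries, for 27 of the 31, against 10.5% of all genes. The median log2 fold change of the 31 was 2.67, beside 0.01 over all genes tested. These folds rest on small numbers, since WT day 0 kidneys held between 1 and 90 counts per member over 4 libraries.

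Among the 6 genes of the receptor complex and its kinases, 4 were called higher. Cd3e, an invariant chain of the receptor, is the reference gene for later ratios. At day 0 Cd3e stood at 0.173, 0.34, 0.359 and 1.2 CPM in the WT libraries and 3.52, 2.98, 1.98 and 4.6 CPM in the libraries labelled KO, a log2 fold change of 2.64 ± 0.70 (adjusted p = 0.0336). Cd3d, its partner chain, had 0.346, 0.255, 0.449 and 0.43 CPM in the WT libraries and 2.23, 3.22, 1.9 and 3.12 CPM in the libraries labelled KO. Cd3g, the third CD3 chain, had 0.259, 0.34, 0.807 and 0.688 CPM in the WT libraries and 4.81, 4.18, 2.36 and 4.21 CPM in the libraries labelled KO. All KO values lay above all WT values for these 3 chains. Lck, the kinase that phosphorylates them, had 0.951, 1.11, 1.35 and 2.66 CPM in the WT libraries and 4.98, 6.21, 5.64 and 7.95 CPM in the libraries labelled KO. Their folds were 2.79 ± 0.70 for Cd3d, 2.88 ± 0.64 for Cd3g and 2.02 ± 0.47 for Lck, with adjusted p of 0.0233, 0.0102 and 0.0148. Cd247, the zeta chain, and Zap70, the kinase that docks on it, did not pass the test, at 1.89 ± 0.63 (adjusted p = 0.105) and 2.31 ± 0.71 (adjusted p = 0.072), although their groups did not overlap either.

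Of the 3 surface receptors shared by T cells, 2 were called higher. Cd2, an adhesion receptor also on NK cells, had 0, 0.085, 0.269 and 0.602 CPM in the WT libraries and 3.61, 2.27, 1.07 and 2.1 CPM in the libraries labelled KO, and its fold was 3.20 ± 0.71 (adjusted p = 0.00998). Cd6, a receptor that tunes T cell signalling, had 0.0865, 0.425, 0.359 and 0.688 CPM in the WT libraries and 3.95, 2.86, 1.6 and 2.34 CPM in the libraries labelled KO, a fold of 2.75 ± 0.76 (adjusted p = 0.0414). Cd5, another receptor that dampens signalling, had 2.60 ± 0.79 and an adjusted p of 0.0666, with no overlap between the groups.

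Both CD4 and CD8 genes were higher at day 0. Cd4 stood at 0.259, 0.765, 0.538 and 0.688 CPM in the WT libraries and 6.18, 2.75, 2.13 and 6.94 CPM in the libraries labelled KO, a fold of 2.99 ± 0.59 (adjusted p = 0.00413). Cd8a stood at 3.03, 0.85, 1.44 and 2.49 CPM in the WT libraries and 8.59, 6.68, 5.48 and 9.28 CPM in the libraries labelled KO, a fold of 1.94 ± 0.41 (adjusted p = 0.00715). Cd8b1, the chain that conventional CD8 T cells pair with Cd8a, had 0.0865, 0.255, 0 and 0.344 CPM in the WT libraries and 4.9, 4.06, 2.21 and 2.96 CPM in the libraries labelled KO. The fold of Cd8b1 was 4.28 ± 0.59 (adjusted p = 0.000269), the lowest adjusted p of the 31. Cd8a, which some dendritic cells also make, was already measurable in the WT libraries, and Cd8b1 was close to 0 there.

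Costimulation and checkpoint receptors gave 2 calls of 4. Cd28, the main costimulatory receptor, had 0.173, 0.595, 0.269 and 0.0859 CPM in the WT libraries and 1.98, 1.55, 0.609 and 3.2 CPM in the libraries labelled KO and a fold of 2.67 ± 0.63 (adjusted p = 0.0154). Pdcd1, which encodes the checkpoint receptor PD-1, had 0, 0.255, 0.0897 and 0 CPM in the WT libraries and 2.23, 1.67, 0.914 and 2.18 CPM in the libraries labelled KO and a fold of 4.21 ± 0.87 (adjusted p = 0.00626). Icos, an inducible costimulator, was not called (adjusted p = 0.307). Ctla4, an inhibitory receptor of activated and regulatory T cells, had 1 count over the WT libraries and 21 over those labelled KO, a pooled ratio of 21.1 with a 95% counting interval of 3.39 to 871, and was not called either. Such pooled ratios hold counting error only and no spread between libraries.

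Foxp3 was not called at day 0. It stood at 0.0865, 0, 0.0897 and 0.172 CPM in the WT libraries and 0.258, 0.119, 0.914 and 0.546 CPM in the libraries labelled KO, and the groups overlapped (log2 fold change 2.37 ± 0.81, adjusted p = 0.114). At most 12 Foxp3 counts were found in a day 0 library, which limits what could be detected at this depth.

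Lineage transcription factors gave 2 calls of 3. Tbx21, which encodes T-bet, a driver of interferon-gamma production, had 0.0865, 0.085, 0.269 and 0 CPM in the WT libraries and 1.46, 0.597, 0.457 and 1.01 CPM in the libraries labelled KO and a fold of 2.94 ± 0.74 (adjusted p = 0.0235). Eomes, its relative in CD8 memory and NK cells, had 0, 0.085, 0.269 and 0 CPM in the WT libraries and 1.2, 1.07, 1.37 and 1.09 CPM in the libraries labelled KO, a fold of 3.66 ± 0.63 (adjusted p = 0.0016). Tox, a factor of T cell development and exhaustion, had 1.3, 1.28, 2.06 and 1.98 CPM in the WT libraries and 2.15, 2.27, 1.07 and 4.21 CPM in the libraries labelled KO. Tox was not called and its groups overlapped (0.55 ± 0.33, adjusted p = 0.467).

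Effector molecules gave 5 calls of 7. Nkg7, a granule membrane protein of NK and cytotoxic T cells, had 0.0865, 0.34, 0.628 and 0 CPM in the WT libraries and 7.13, 5.61, 3.88 and 7.09 CPM in the libraries labelled KO, and its fold, 4.46 ± 0.64 (adjusted p = 0.000363), was the largest of the 31. Gzmb, a granzyme that starts apoptosis in target cells, had 0, 0.085, 0 and 0.344 CPM in the WT libraries and 2.15, 2.86, 0.762 and 1.71 CPM in the libraries labelled KO. Gzmk, a granzyme of memory-type CD8 T cells, had 0, 0.085, 0 and 0.172 CPM in the WT libraries and 1.63, 1.55, 0.99 and 1.64 CPM in the libraries labelled KO. With 3 counts over the WT libraries against 66, Gzmk had a pooled ratio of 22.1 (95% counting interval 7.23 to 110). Prf1, the pore-forming perforin, had 0.173, 0.17, 0.179 and 0.172 CPM in the WT libraries and 1.12, 1.43, 1.14 and 0.857 CPM in the libraries labelled KO. Fasl, the ligand that kills through Fas, had 0.0865, 0.085, 0.0897 and 0.0859 CPM in the WT libraries and 0.687, 0.597, 0.381 and 0.702 CPM in the libraries labelled KO. Every library labelled KO exceeded every WT library for these 5 genes. The folds of Gzmb, Prf1 and Fasl were 3.99 ± 1.00 (adjusted p = 0.0233), 2.64 ± 0.57 (adjusted p = 0.00869) and 2.66 ± 0.53 (adjusted p = 0.00478). Gzma, the other abundant granzyme, was not called (adjusted p = 0.0929). Ifng, the cytokine interferon-gamma, stood at 0, 0, 0.0897 and 0 CPM in the WT libraries and 0.429, 0.239, 0.0762 and 0.312 CPM in the libraries labelled KO. Over its 12 KO counts and 1 WT count Ifng had a ratio of 12.0 (95% counting interval 1.78 to 514) and was not called.

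Of the 4 NK and interleukin receptors 2 were called. Klrk1, the activating receptor NKG2D of NK and CD8 T cells, had 0.346, 0.68, 0.628 and 0.602 CPM in the WT libraries and 2.4, 2.51, 2.13 and 2.42 CPM in the libraries labelled KO, a fold of 2.05 ± 0.50 (adjusted p = 0.0187). Il2rb, the shared beta chain of the IL-2 and IL-15 receptors, had 0.865, 1.19, 0.718 and 1.12 CPM in the WT libraries and 6.7, 5.13, 5.79 and 8.65 CPM in the libraries labelled KO, a fold of 2.75 ± 0.52 (adjusted p = 0.00348). Ncr1, which encodes NKp46 and is among the most NK-restricted of the members, had 0.173, 0.085, 0.0897 and 0.172 CPM in the WT libraries and 0.344, 0.119, 0.305 and 0 CPM in the libraries labelled KO. Ncr1 groups overlapped and the gene was not called (0.56 ± 1.03, adjusted p = 0.868), with at most 4 counts in any day 0 library. Klrd1 (CD94), a receptor chain of NK cells and some CD8 T cells, was not called either (1.25 ± 0.42, adjusted p = 0.111). Its groups did not overlap, with WT up to 0.680 and KO from 0.687 CPM. The 2 called receptors are shared with T cells, whereas Ncr1 and Klrd1 mark NK cells more narrowly. Whether the day 0 difference lies in T cells or NK cells was not tested.

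At day 0 markers of other blood cells differed too. All 6 leukocyte markers, for example Ptprc, were higher in the libraries labelled KO, with summed CPM of 122 to 183 against 31.1 to 53.1 in WT. Macrophage markers were higher for 6 of 9 (364 to 447 against 233 to 296 CPM), dendritic markers for 4 of 8 (22.7 to 33.9 against 8.73 to 12.8), and B cell markers for 1 of 7, Cd79a (5.97 to 7.41 against 2.92 to 5.11). Of the 6 tested neutrophil and 7 tested kidney markers 0 were called. The 6 lymph node stroma markers summed to 0.152 to 0.935 CPM in KO and 0.0865 to 0.516 CPM in WT, 0 of the 2 tested were called, and Ccl21a and Chst4 were at 0 in all 8 libraries. The part of blood or lymph tissue carried with the kidney in the day 0 difference was not tested.

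WT day 0 replicate 1 mattered most for the day 0 count. Without that library 11 of the 31 were called. With limma on log2(FPKM + 1), which keeps 22 of the members and shrinks folds of low genes, 5 were called. The calls of Cd8a, Cd8b1, Eomes, Fasl, Gzmk, Nkg7 and Prf1 passed the threshold in each alternative setting that tested them. DESeq2 called 25.

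**Figure D2:**
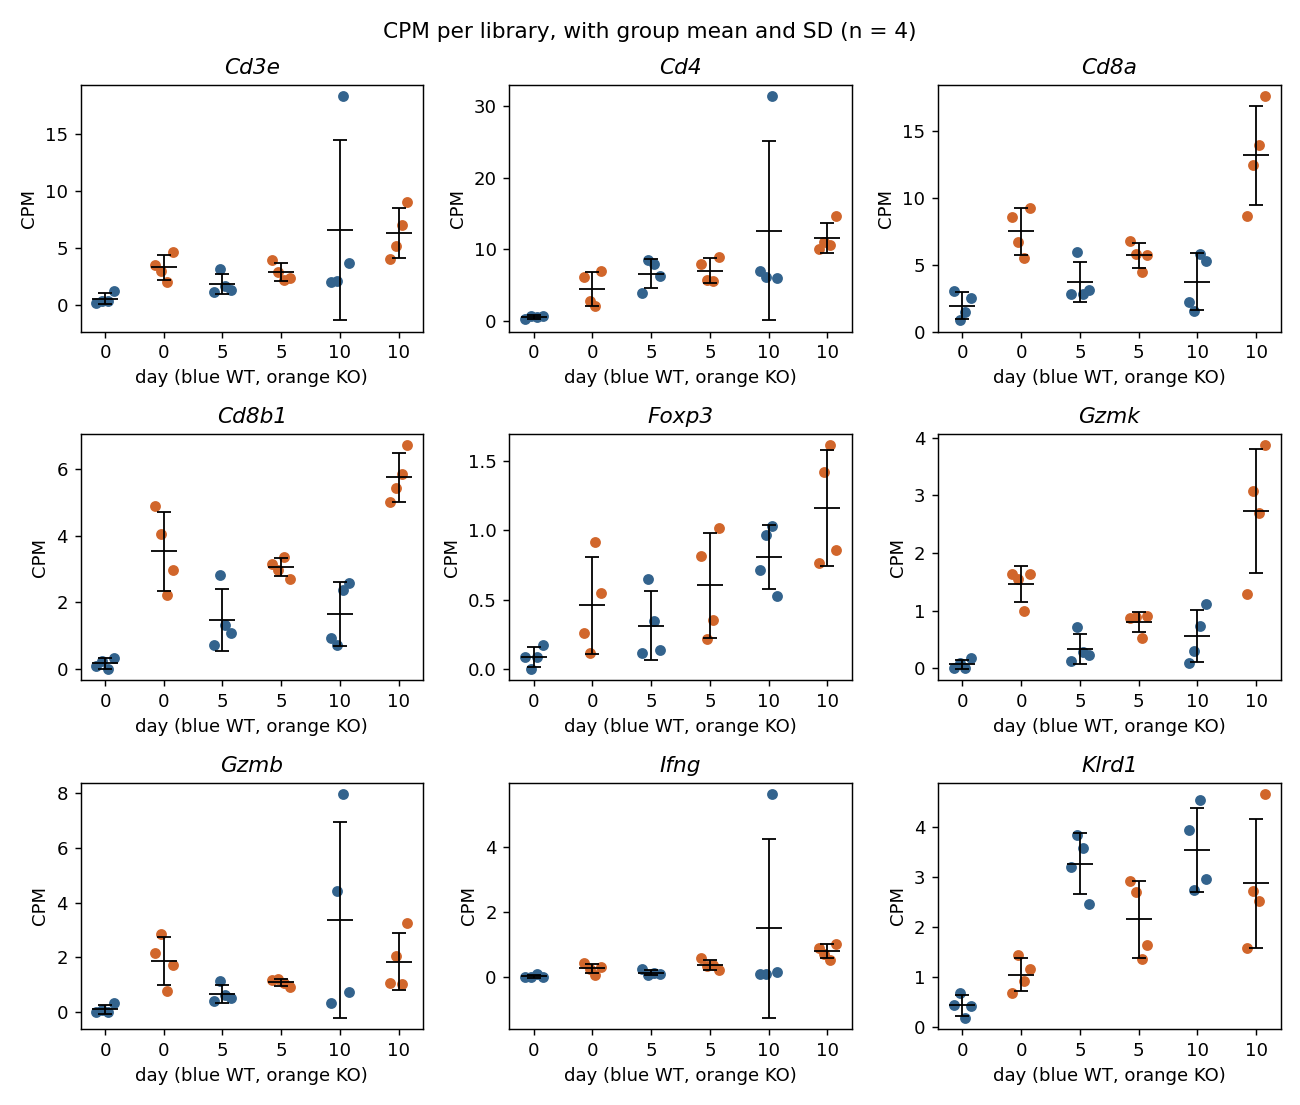
CPM of 9 of the genes in each library, by group, as points with the mean and its SD (n = 4 per group, linear axes that start at or below 0). The day 0 libraries labelled KO sit above the WT ones for Cd3e, Cd4, Cd8a, Cd8b1, Gzmk and Gzmb, day 5 groups overlap for the genes drawn, and at day 10 Cd8a, Cd8b1 and Gzmk are apart again.

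**Figure D3:**
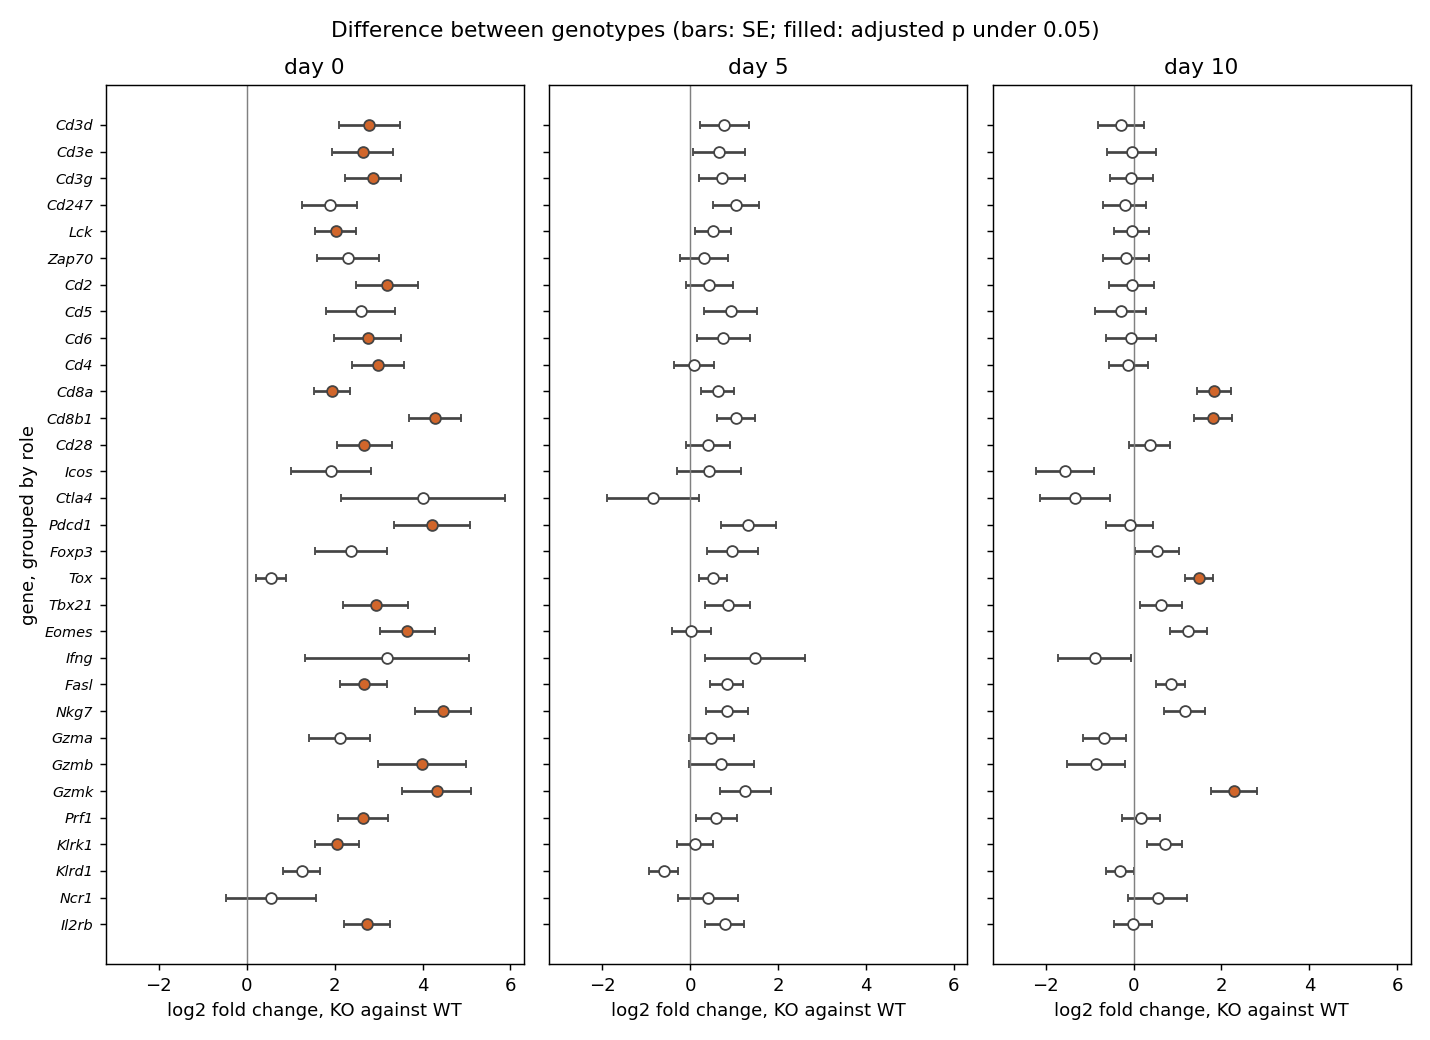
Log2 fold change KO over WT (x axis) of each gene at day 0, day 5 and day 10 with its SE as bars, filled where the adjusted p is under 0.05. The day 0 panel has 20 filled points to the right of 0, the day 5 panel none, and the day 10 panel 4, Cd8a, Cd8b1, Gzmk and Tox, which do not pass with the replicate block. Day 0 folds of Ctla4, Ifng and Gzmk rest on 1 to 3 counts in WT.

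Sequences just upstream of these genes were compared because so many of the genes were higher together at day 0, and the windows shown were chosen after the values were seen. RefSeq promoter windows (GRCm38.p6, 250 bases before to 50 after a start; the counts were made on another build, mm9) were found for 22 members, in 27 windows. The letters searched, on both strands, were GGAAGT (bound by ETS factors), TGTGGT (RUNX factors) and TCACACCT (T-box factors such as T-bet and Eomes). GGAAGT was in 40.7% of the members' windows and in 23.8% of all 32851 windows of that length. TGTGGT was in 33.3% against 16.8%. The 2 Ncr1 windows overlap and hold the same TGTGGT matches, so they are not separate sequences. By gene, GGAAGT was found in 10 and TGTGGT in 8 of the 22 members. TCACACCT was in 1 of the 27 windows, or 3.70%, against 1.28%. A match is not evidence of binding. The 4 windows below belong to a cytotoxic gene with the largest day 0 fold, another granule gene called at day 0, a granzyme called at day 0 and day 10, and Cd8a, called at both days. Capitals mark the letters searched, and each sequence is given 5′ to 3′ on the strand of its gene.
Nkg7, chr7:43436888-43437187, plus strand, with a RUNX and a T-box match: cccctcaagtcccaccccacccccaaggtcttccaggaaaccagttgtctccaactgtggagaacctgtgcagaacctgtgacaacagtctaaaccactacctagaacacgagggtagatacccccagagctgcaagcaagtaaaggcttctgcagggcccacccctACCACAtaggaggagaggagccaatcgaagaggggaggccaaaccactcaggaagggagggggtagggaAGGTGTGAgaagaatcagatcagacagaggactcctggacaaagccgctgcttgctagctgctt
Prf1, chr10:61297586-61297885, plus strand, with 2 ETS and 1 RUNX matches: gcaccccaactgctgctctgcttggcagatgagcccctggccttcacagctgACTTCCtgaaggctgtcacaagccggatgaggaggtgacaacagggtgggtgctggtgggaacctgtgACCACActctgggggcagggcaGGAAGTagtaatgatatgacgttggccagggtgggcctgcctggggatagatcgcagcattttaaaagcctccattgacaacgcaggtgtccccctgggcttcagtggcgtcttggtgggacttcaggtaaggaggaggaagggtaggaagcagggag
Gzmk, chr13:113180916-113181215, minus strand, with 1 ETS match: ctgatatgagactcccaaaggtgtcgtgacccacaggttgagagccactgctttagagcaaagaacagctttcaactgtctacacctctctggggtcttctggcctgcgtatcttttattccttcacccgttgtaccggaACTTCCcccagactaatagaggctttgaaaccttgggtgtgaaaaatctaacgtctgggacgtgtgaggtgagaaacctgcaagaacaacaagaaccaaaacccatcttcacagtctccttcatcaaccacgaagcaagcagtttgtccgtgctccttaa
Cd8a, chr6:71373177-71373476, plus strand, with 0 matches: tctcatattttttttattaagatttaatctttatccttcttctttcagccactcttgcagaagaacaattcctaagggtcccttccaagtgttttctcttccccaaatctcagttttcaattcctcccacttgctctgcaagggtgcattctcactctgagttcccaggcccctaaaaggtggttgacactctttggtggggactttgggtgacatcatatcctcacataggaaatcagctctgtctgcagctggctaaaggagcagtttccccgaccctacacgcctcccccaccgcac
The only T-box match in the members' windows was that of Nkg7, and the Cd8a window held none of the 3 motifs.

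At day 5 of obstruction no member passed the test between genotypes. The count called by edgeR's quasi-likelihood test was 0 of 31, against 0.146% of all genes in either direction, with a lowest adjusted p of 0.307. Unadjusted p was under 0.05 for 4 members, where the share of all genes at that unadjusted threshold is not given, and DESeq2 called 0. The groups did not overlap for 2, Pdcd1 and Cd247, both higher in KO, against 2.73% of all genes. The median log2 fold change of the 31 was 0.66, and 29 of the 31 were above 0.

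T cell receptor and shared receptor genes other than Cd247 and Pdcd1 overlapped between genotypes at day 5. Cd3e had 1.13, 3.13, 1.66 and 1.32 CPM in the WT libraries and 3.96, 2.87, 2.18 and 2.38 CPM in the libraries labelled KO. Cd3d had 1.49, 3.01, 2.49 and 0.818 CPM in the WT libraries and 3.91, 4.08, 2.18 and 3.11 CPM in the libraries labelled KO, and Cd3g had 1.78, 4.37, 3.04 and 1.23 CPM in the WT libraries and 6.0, 3.97, 3.42 and 3.79 CPM in the libraries labelled KO. Lck had 6.24, 7.49, 8.78 and 4.05 CPM in the WT libraries and 15.2, 8.11, 6.5 and 8.37 CPM in the libraries labelled KO. WT replicate 2 lay inside the KO range for all 3 CD3 chains, and WT replicates 1 and 4 lay below it. Cd2 had 1.25, 2.6, 1.59 and 1.18 CPM in the WT libraries and 2.91, 2.15, 1.77 and 2.09 CPM in the libraries labelled KO, and Cd6 had 1.01, 3.3, 1.87 and 1.27 CPM in the WT libraries and 4.43, 2.93, 1.36 and 3.85 CPM in the libraries labelled KO. Cd28 had 0.892, 1.65, 1.38 and 0.955 CPM in the WT libraries and 1.98, 1.38, 1.42 and 1.64 CPM in the libraries labelled KO. The genotypes overlapped for these 3 receptors. Pdcd1 had 0.357, 0.708, 0.691 and 0.227 CPM in the WT libraries and 1.22, 1.66, 1.0 and 1.02 CPM in the libraries labelled KO, which did not overlap, at a log2 fold change of 1.33 ± 0.63 (adjusted p = 0.357).

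CD4, CD8 and regulatory genes were also mixed at day 5. Cd4 had 3.86, 8.5, 7.95 and 6.23 CPM in the WT libraries and 7.99, 5.69, 5.55 and 9.0 CPM in the libraries labelled KO, and the ranges overlapped. Cd8a had 2.85, 5.96, 2.83 and 3.14 CPM in the WT libraries and 6.82, 5.8, 4.49 and 5.77 CPM in the libraries labelled KO, and WT replicate 2 was level with the KO libraries. Cd8b1 had 0.713, 2.83, 1.31 and 1.09 CPM in the WT libraries and 3.15, 2.98, 3.37 and 2.72 CPM in the libraries labelled KO, with the same WT replicate inside the KO range. Foxp3 had 0.119, 0.649, 0.346 and 0.136 CPM in the WT libraries and 0.816, 0.221, 0.354 and 1.02 CPM in the libraries labelled KO, so that the highest WT library exceeded the lowest 2 of KO. Tox had 1.72, 3.24, 2.56 and 1.95 CPM in the WT libraries and 3.44, 3.75, 3.42 and 3.0 CPM in the libraries labelled KO, again with an overlap.

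Cytotoxic and NK genes overlapped between genotypes at day 5 as well. Tbx21 had 0.713, 0.767, 0.829 and 0.50 CPM in the WT libraries and 2.04, 0.828, 1.06 and 1.13 CPM in the libraries labelled KO, and Eomes had 0.416, 1.18, 0.898 and 0.364 CPM in the WT libraries and 0.816, 0.607, 0.65 and 0.792 CPM in the libraries labelled KO. Ifng had 0.238, 0.059, 0.138 and 0.0909 CPM in the WT libraries and 0.583, 0.331, 0.354 and 0.226 CPM in the libraries labelled KO. Fasl had 0.475, 0.472, 0.276 and 0.273 CPM in the WT libraries and 0.641, 1.05, 0.472 and 0.509 CPM in the libraries labelled KO. The groups overlapped for each of these 4 genes. Nkg7 had 1.9, 4.48, 3.94 and 2.18 CPM in the WT libraries and 7.17, 5.69, 4.37 and 5.09 CPM in the libraries labelled KO, and Gzmb had 0.416, 1.12, 0.622 and 0.50 CPM in the WT libraries and 1.17, 1.21, 1.06 and 0.905 CPM in the libraries labelled KO. Gzmk had 0.119, 0.708, 0.276 and 0.227 CPM in the WT libraries and 0.874, 0.883, 0.531 and 0.905 CPM in the libraries labelled KO, and Prf1 had 0.357, 0.649, 0.276 and 0.50 CPM in the WT libraries and 0.758, 0.552, 0.472 and 0.962 CPM in the libraries labelled KO. In each of these granule genes the highest WT library was inside the KO range. Klrk1 had 2.85, 2.89, 4.42 and 2.14 CPM in the WT libraries and 4.96, 4.64, 1.83 and 1.75 CPM in the libraries labelled KO, and Il2rb had 3.15, 3.48, 3.52 and 6.46 CPM in the WT libraries and 7.75, 6.02, 5.67 and 9.45 CPM in the libraries labelled KO. Ncr1 had 0.594, 0.118, 0.276 and 0.409 CPM in the WT libraries and 0.583, 0.718, 0.236 and 0.34 CPM in the libraries labelled KO. For Klrk1, KO replicates 3 and 4 were below all WT libraries, Il2rb was lowest in WT replicates 1 to 3, and Ncr1 was mixed.

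At day 10 the CD8 genes, Gzmk and Tox were called higher in KO, and 0 members were lower (edgeR quasi-likelihood test), against 0.139% of all genes called higher. None of the 4 passed with the replicate number as a block, with adjusted p from 0.0597 to 0.0763, and same-numbered libraries deviated together in this comparison. The block was fitted over all 24 libraries and not for this comparison alone. The same number, 4, had groups that did not overlap, against 1.49% of all genes. The median log2 fold change of the 31 was -0.04, close to that of all genes (-0.02).

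Cd8a had 2.23, 1.57, 5.81 and 5.29 CPM in the WT libraries and 8.7, 12.5, 14 and 17.6 CPM in the libraries labelled KO, a fold of 1.83 ± 0.38 (adjusted p = 0.017). Cd8b1 had 0.948, 0.71, 2.36 and 2.59 CPM in the WT libraries and 5.0, 5.43, 5.86 and 6.72 CPM in the libraries labelled KO, a fold of 1.80 ± 0.43 (adjusted p = 0.0331). Gzmk had 0.0948, 0.304, 0.726 and 1.11 CPM in the WT libraries and 1.29, 3.07, 2.69 and 3.87 CPM in the libraries labelled KO, a fold of 2.29 ± 0.53 (adjusted p = 0.028). Every library labelled KO lay above every WT library for these 3, including WT replicate 3, in which most T cell genes were high. Tox had 3.22, 1.52, 2.12 and 1.69 CPM in the WT libraries and 5.88, 7.32, 5.75 and 5.12 CPM in the libraries labelled KO, a fold of 1.49 ± 0.31 (adjusted p = 0.017), again with no overlap. Of the other markers, all 6 tested neutrophil markers were lower in KO at day 10, and 0 of the 6 leukocyte, 9 macrophage, 8 dendritic, 7 B cell and 7 kidney markers were called. Summed neutrophil markers were 27.3, 3783, 6424 and 26.0 CPM in the WT libraries and 11.6 to 22.3 CPM in KO. WT replicates 1 and 4 thus stood just above the KO range.

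Genes of all T cells and of CD4 cells overlapped at day 10. Cd3e had 1.99, 2.08, 18.3 and 3.7 CPM in the WT libraries and 4.0, 5.13, 6.99 and 9.05 CPM in the libraries labelled KO, at a log2 fold change of -0.04 ± 0.56 (adjusted p = 0.973). Cd3d had 2.8, 3.04, 22.9 and 3.33 CPM in the WT libraries and 3.88, 6.14, 6.83 and 9.28 CPM in the libraries labelled KO, and Cd3g had 4.5, 2.89, 22.6 and 3.97 CPM in the WT libraries and 5.0, 9.21, 8.6 and 9.91 CPM in the libraries labelled KO. Cd4 had 6.97, 6.14, 31.4 and 5.98 CPM in the WT libraries and 10.1, 11.1, 10.6 and 14.6 CPM in the libraries labelled KO, a fold of -0.12 ± 0.45 (adjusted p = 0.914). In each of them WT replicate 3 was the highest of the 8 libraries and the other 3 WT libraries were below all of KO. Without that replicate the folds were 1.27 for Cd3e and 0.86 for Cd4, higher in KO and not called (adjusted p = 0.225 and 0.340). Lck had 9.91, 8.88, 35.4 and 7.67 CPM in the WT libraries and 11.8, 13.6, 13.8 and 20.6 CPM in the libraries labelled KO. Cd2 had 2.23, 2.69, 10.8 and 1.9 CPM in the WT libraries and 2.88, 4.31, 3.55 and 6.26 CPM in the libraries labelled KO, and Cd6 had 1.66, 2.89, 21.4 and 5.24 CPM in the WT libraries and 4.47, 8.56, 7.69 and 9.28 CPM in the libraries labelled KO. The same replicate was again the highest for these 3. Cd28 had 1.37, 1.78, 7.32 and 2.49 CPM in the WT libraries and 3.06, 4.31, 3.12 and 6.09 CPM in the libraries labelled KO, and Pdcd1 had 0.759, 3.1, 8.83 and 1.9 CPM in the WT libraries and 1.65, 2.89, 3.71 and 5.35 CPM in the libraries labelled KO. Foxp3 had 0.711, 0.964, 1.03 and 0.529 CPM in the WT libraries and 0.764, 1.42, 1.61 and 0.854 CPM in the libraries labelled KO, at a log2 fold change of 0.53 ± 0.50 (adjusted p = 0.636). WT replicate 3 was not set apart in Foxp3, unlike in the other genes of this paragraph.

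The remaining cytotoxic genes overlapped as well. Gzmb had 0.332, 4.41, 7.98 and 0.741 CPM in the WT libraries and 1.06, 2.07, 1.02 and 3.25 CPM in the libraries labelled KO, with WT replicates 2 and 3 the highest. Ifng had 0.0948, 0.101, 5.63 and 0.159 CPM in the WT libraries and 0.882, 0.708, 0.538 and 1.02 CPM in the libraries labelled KO, in which WT replicate 3 was the highest and the other 3 WT libraries the lowest. Nkg7 had 2.99, 1.62, 10.8 and 3.54 CPM in the WT libraries and 7.46, 10.2, 11 and 13.6 CPM in the libraries labelled KO. Nkg7 thus reached the KO range in WT replicate 3 only. Eomes had 0.759, 0.355, 0.605 and 1.27 CPM in the WT libraries and 2.06, 1.24, 1.77 and 2.05 CPM in the libraries labelled KO, and Tbx21 had 0.806, 0.406, 3.08 and 0.899 CPM in the WT libraries and 1.47, 1.83, 2.58 and 2.05 CPM in the libraries labelled KO. Fasl had 0.569, 0.507, 1.45 and 0.688 CPM in the WT libraries and 0.999, 1.42, 1.34 and 1.99 CPM in the libraries labelled KO, and Prf1 had 0.332, 0.507, 2.42 and 0.635 CPM in the WT libraries and 0.94, 1.0, 0.914 and 1.42 CPM in the libraries labelled KO. Of the 8 libraries WT replicate 3 was the highest for Tbx21 and Prf1, but not for Eomes or Fasl. Klrk1 had 4.55, 1.78, 4.9 and 3.39 CPM in the WT libraries and 3.7, 3.78, 4.36 and 12.1 CPM in the libraries labelled KO. Il2rb had 4.6, 7.21, 33 and 6.88 CPM in the WT libraries and 8.88, 9.97, 14.6 and 17.9 CPM in the libraries labelled KO. Ncr1 had 0.474, 0, 0.786 and 0.317 CPM in the WT libraries and 0.294, 0.413, 0.323 and 1.25 CPM in the libraries labelled KO. Klrk1 and Ncr1 were both highest in KO replicate 4, and their groups overlapped.

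The calls of Cd8a, Cd8b1, Gzmk and Tox changed with single libraries. With the replicate number as a block, 0 of the 4 passed: Cd8a had 1.85 (adjusted p = 0.0597), Cd8b1 1.81 (0.0763), Gzmk 2.33 (0.0597) and Tox 1.48 (0.0597). None passed either without WT day 10 replicates 2 and 3, at 1.81 (adjusted p = 0.0628), 1.70 (0.193), 2.19 (0.229) and 1.27 (0.246), nor after leaving out WT replicate 2 or any of KO replicates 2, 3 and 4, or with only the 2 groups fitted, and 1, Cd8a, passed without KO replicate 1.

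The other 7 members are given by their ranges, in CPM. Cd247 ranged from 0.259 to 0.628 in WT and 0.99 to 1.98 in KO at day 0, from 0.829 to 1.83 and 2.18 to 3.23 at day 5, and from 1.67 to 12.3 and 2.37 to 5.47 at day 10. Zap70 ranged from 0.0865 to 0.516 in WT and 1.29 to 1.71 in KO at day 0, from 1.19 to 2.49 and 1.24 to 3.85 at day 5, and from 1.69 to 13.4 and 2.82 to 5.01 at day 10. Cd5 ranged from 0.0897 to 0.425 in WT and 0.914 to 2.32 in KO at day 0, from 0.829 to 2.18 and 1.89 to 3.26 at day 5, and from 1.71 to 20.3 and 3.7 to 6.6 at day 10. The highest day 10 value of these 3 was that of WT replicate 3. Icos ranged from 0.0897 to 0.51 in WT and 0.716 to 1.4 in KO at day 0, from 0.546 to 1.52 and 0.59 to 2.1 at day 5, and from 0.853 to 20.9 and 1.72 to 3.25 at day 10. Ctla4 ranged from 0 to 0.0865 in WT and 0.156 to 0.836 in KO at day 0, from 0.0909 to 1.0 and 0 to 0.816 at day 5, and from 0.806 to 21 and 1.4 to 5.55 at day 10. Both of these receptors of activated T cells were highest in WT day 10 replicates 2 and 3 within their group. Gzma ranged from 0.0865 to 0.359 in WT and 0.702 to 1.79 in KO at day 0, from 0.892 to 1.83 and 1.64 to 2.33 at day 5, and from 0.853 to 8.17 and 1.23 to 3.99 at day 10. Klrd1 ranged from 0.179 to 0.68 in WT and 0.687 to 1.43 in KO at day 0, from 2.45 to 3.83 and 1.36 to 2.91 at day 5, and from 2.74 to 4.54 and 1.59 to 4.67 at day 10. Their genotypes overlapped at day 5 and at day 10.

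Relative to Cd3e, the genotypes did not overlap in Cd8a at day 10 and overlapped in Cd4, Foxp3 and Ncr1. No ratio passed after adjustment over the 8 tests. With 4 against 4 libraries a single ratio could not pass, however far apart its groups, so the adjusted values decide nothing about 1 ratio. For each library the log2 of the ratio of counts (each plus 0.5) to Cd3e was taken, which does not depend on depth, and genotypes were compared by an exact two-sided permutation test in 8 tests. Cd8a to Cd3e count ratios at day 10 were 1.12, 0.756, 0.317 and 1.43 in WT and 2.18, 2.44, 2.0 and 1.95 in KO. The mean log2 ratio was -0.34 ± 0.95 in WT and 1.09 ± 0.14 in KO (SD, n = 4), a difference of 1.43 with an exact permutation p of 0.0286, the smallest that 4 against 4 allow, and 0.229 after adjustment over the 8 tests. At day 5 the Cd8a ratio differed by -0.04 (exact permutation p = 0.886).

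Cd4 to Cd3e ratios were 3.42, 2.72, 4.79 and 4.72 in WT and 2.01, 1.98, 2.54 and 3.79 in KO at day 5. The log2 difference was -0.60 (exact permutation p = 0.114, adjusted 0.457). At day 10 they were 3.5, 2.95, 1.71 and 1.61 in WT and 2.51, 2.161, 1.52 and 1.62 in KO, a difference of -0.27 (exact permutation p = 0.429). Foxp3 to Cd3e differed by 0.22 at day 5 and -0.06 at day 10, and Ncr1 to Cd3e by -0.26 and 0.50, with exact permutation p from 0.657 to 0.971. Both genes had few counts, and their within-group SD of 0.46 to 1.84 was larger than these differences.

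Per length, in the deposited FPKM, the ratio of Cd8a to Cd4 at day 10 was 0.319, 0.252, 0.184 and 0.903 in WT and 0.914, 1.16, 1.36 and 1.24 in KO. WT replicate 4 and KO replicate 1 were nearly level, and in counts they overlapped, at 0.885 and 0.865. At day 5 the FPKM ratio was 0.739, 0.688, 0.355 and 0.516 in WT and 0.896, 1.05, 0.867 and 0.678 in KO, with an overlap. At day 0 all 8 libraries had more Cd8a than Cd4, at 11.7, 1.22, 3.16 and 3.92 in WT and 1.4, 2.32, 2.57 and 1.39 in KO. Klrd1 to Cd3e ratios, chosen after their values were seen, were 4.52, 2.15, 3.97 and 3.28 in WT and 1.24, 1.87, 1.14 and 1.24 in KO at day 5, in FPKM. They did not overlap at that day, and all 8 libraries held more Klrd1 than Cd3e per length. At day 10 they were 2.89, 2.2, 0.411 and 1.36 in WT and 0.782, 0.909, 0.656 and 0.902 in KO, and overlapped through WT replicate 3.

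**Figure D4:**
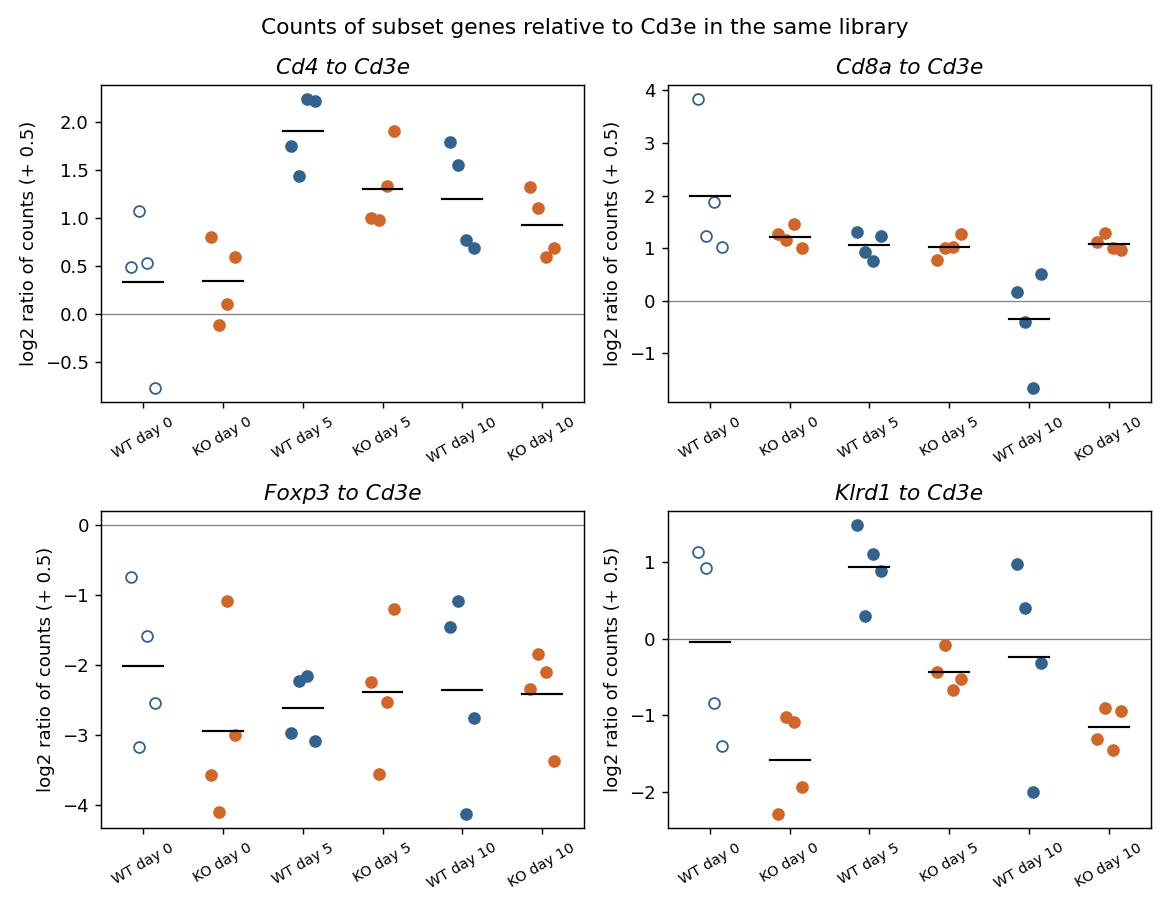
Log2 ratio of counts to Cd3e (each plus 0.5) for Cd4, Cd8a, Foxp3 and Klrd1 in each library, by group, with the group mean as a line. Open circles are the WT day 0 libraries, where Cd3e has 2 to 14 counts. Cd8a ratios of day 10 are all higher in KO than in WT, Klrd1 ratios of day 5 are all lower in KO, and the Cd4 and Foxp3 ratios of the genotypes overlap.

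In the WT libraries most members rose after obstruction. At day 5 against day 0, 24 of 31 rose and 0 fell, where 31% of all genes rose. Klrd1 had the lowest adjusted p (2.89 ± 0.39, adjusted p = 5.66e-06), Cd4 rose by 3.54 ± 0.58 (adjusted p = 4.43e-05) and Nkg7 by 3.54 ± 0.65 (adjusted p = 0.000134). Cd8a (0.92 ± 0.41, adjusted p = 0.0591), Foxp3 (1.73 ± 0.83, adjusted p = 0.0803), Icos, Tox, Ifng, Prf1 and Ncr1 did not pass. The 3 NK and interleukin receptors that rose were Klrd1, Klrk1 and Il2rb. In the same comparison all 6 leukocyte markers (summed CPM from 31.1 to 53.1 at day 0 and from 275 to 338 at day 5), 7 of 9 macrophage, 7 of 8 dendritic, 3 of 7 B cell and 1 of 6 neutrophil markers rose and 3 of 7 kidney markers fell, and their part was not tested.

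By day 10, 29 of 31 had risen against day 0, where 37.8% of all genes rose. Cd4 rose by 4.46 ± 0.58 (adjusted p = 1.45e-06) and Cd3e by 3.62 ± 0.69 (adjusted p = 0.000112). Foxp3 rose by 3.10 ± 0.74 (adjusted p = 0.000977), Gzmb by 4.85 ± 0.97 (adjusted p = 0.000167) and Pdcd1 by 5.26 ± 0.83 (adjusted p = 1.36e-05). Ctla4 went from 1 pooled count to 502, a ratio of 304 (95% counting interval 54.2 to 12016), and Ifng from 1 to 100, a ratio of 60.5 (10.6 to 2413). In WT day 10 replicates 1 to 4 the counts were 17, 115, 348 and 22 for Ctla4. For Ifng they were 2, 2, 93 and 3. The pooled ratios thus rest on replicates 2 and 3 for Ctla4 and on replicate 3 for Ifng, and their intervals leave this spread out. Tox and Ncr1 were the exceptions, and Cd8a rose least among those called, by 0.92 ± 0.41 (adjusted p = 0.0491). Without WT day 10 replicates 2 and 3, 27 rose: Cd8a and Ifng then missed the threshold, at 0.96 (adjusted p = 0.0573) and 2.19 (0.0925). In the same comparison all 6 leukocyte, 8 of 9 macrophage, 7 of 8 dendritic, 6 of 7 B cell and all 6 tested neutrophil markers rose, while 1 B cell and 5 of 7 kidney markers fell, and their part in the rise of the T cell genes was not tested.

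Between day 5 and day 10 in WT, 12 of 31 rose, against 7.86% of all genes: Cd3d, Cd3e, Cd3g, Cd247, Cd5, Cd6, Icos, Ctla4, Pdcd1, Ifng, Gzmb and Il2rb. Pdcd1 rose by 2.88 ± 0.62 (adjusted p = 0.00805), Ctla4 by 3.68 ± 0.91 (adjusted p = 0.0156) and Icos by 2.98 ± 0.72 (adjusted p = 0.0136). Neither CD8 gene was called, and neither was Cd4. The calls of these rises rest on WT day 10 replicate 3, since 0 of the 12 passed without it, 0 without replicates 2 and 3 together, and 5 with the replicate number as a block. The count of calls was 2, 7, 4 and 5 without WT day 5 replicates 1, 2, 3 and 4 in turn, and 19 without WT day 10 replicate 1. The size of the rise depended less on single libraries in some genes. With 1 library left out, the smallest log2 rise ran from -0.14 for Ifng to 2.19 for Ctla4 among the 12.

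In the libraries labelled KO the response to obstruction was smaller in number. At day 5, 1 of 31 rose against day 0, Klrd1, by 1.05 ± 0.36 (adjusted p = 0.0246), where 22.4% of all genes rose. Gzmk, at -0.85 ± 0.53 (adjusted p = 0.208), and Eomes, at -0.73 ± 0.44 (adjusted p = 0.198), did not pass. Their day 5 libraries all lay below their day 0 libraries, and the share of all genes that did so is not given. At day 10, 12 of 31 rose against day 0, where 28.3% of all genes rose. They were Cd3d, Lck, Zap70, Cd5, Cd6, Cd4, Cd28, Ctla4, Tox, Fasl, Klrk1 and Klrd1. Tox rose by 1.31 ± 0.32 (adjusted p = 0.0017), Klrd1 by 1.46 ± 0.36 (adjusted p = 0.00177), Fasl by 1.28 ± 0.36 (adjusted p = 0.00523) and Cd4 by 1.36 ± 0.47 (adjusted p = 0.0192). Neither CD8 gene passed (Cd8a 0.81 ± 0.37, adjusted p = 0.0706), nor did Gzmb. Of the other markers 3 of 6 leukocyte and 7 of 9 macrophage markers rose at day 5 and 5 and 8 at day 10, with 1 macrophage marker lower at each, and 3 and then 5 of 7 kidney markers fell. Summed leukocyte markers ran from 122 to 183 CPM at day 0, 330.1 to 384 at day 5 and 384 to 583 at day 10, and the part of these cells was not tested. The day 10 count was 6 without KO day 0 replicate 2 or 3 or KO day 10 replicate 2 or 4, 19 without WT day 10 replicate 3, 22 without WT day 10 replicates 2 and 3, and 25 with only the groups compared in the fit. The day 5 count was 0 without KO day 0 replicate 1 or 3 or KO day 5 replicate 1 or 2, 2 without KO day 0 replicate 4 or WT day 10 replicate 3, and 4 with only the groups compared. Between day 5 and day 10 in KO, 0 of 31 passed in edgeR's test, where 0.0199% of all genes rose, and DESeq2 called 0. Unadjusted p in edgeR's test was under 0.05 for 11 members, and the share of all genes at that unadjusted threshold is not given. The groups did not overlap for 12 of the 31, all higher at day 10, against 4.36% of all genes.

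**Figure D5:**
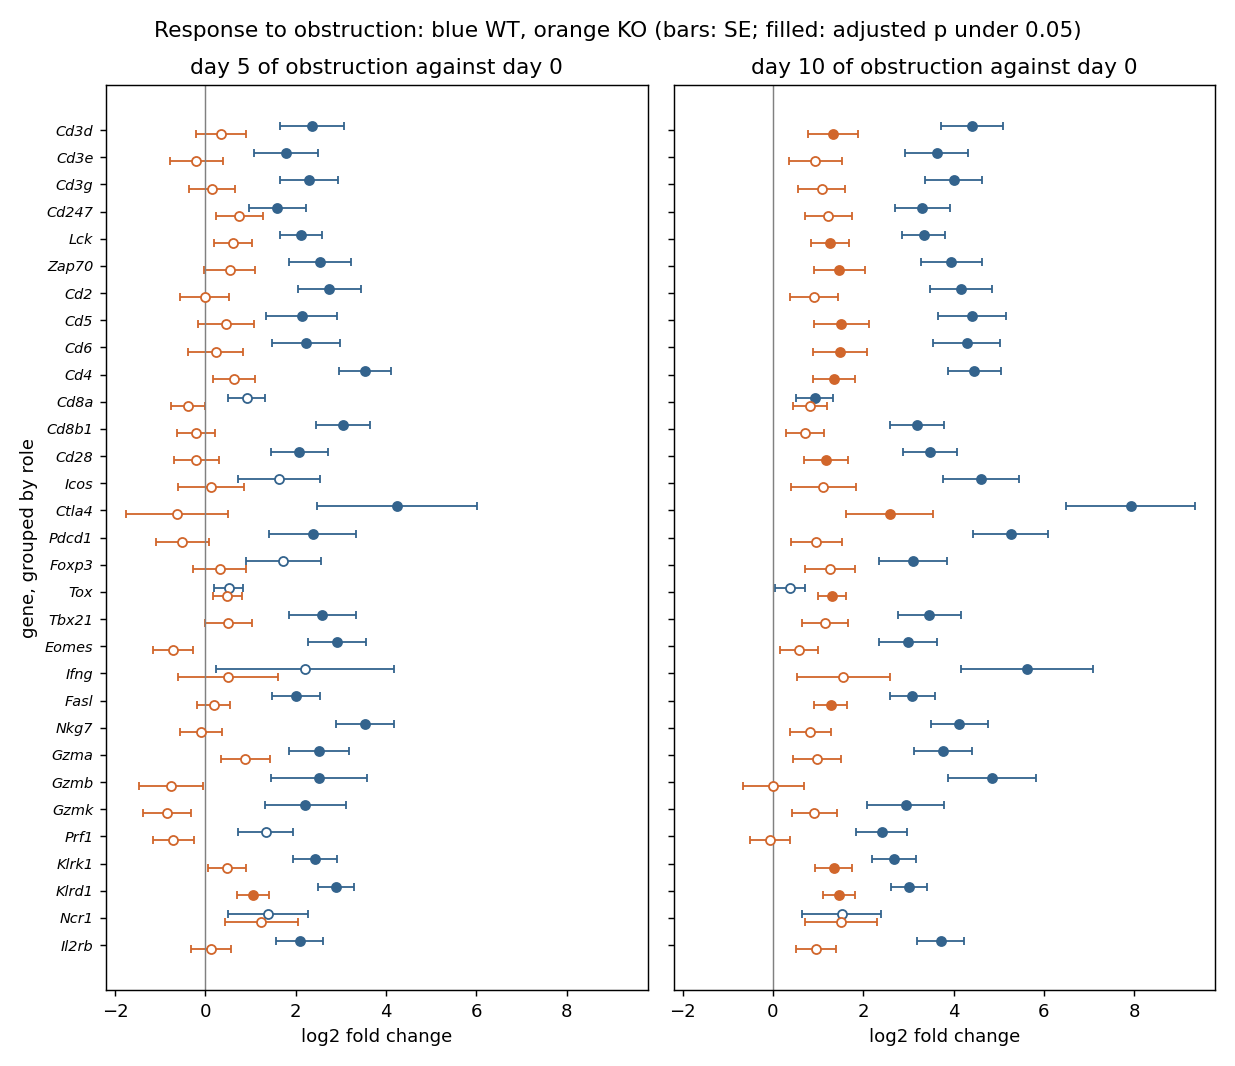
Log2 fold change of each gene at day 5 (left) and day 10 (right) over day 0, in WT (blue) and KO (orange) with SE as bars, filled where called. WT points lie to the right of KO points for nearly all genes, and Tox at day 10 is the opposite. WT folds of Ctla4, Ifng and Gzmk rest on 1 to 3 counts at day 0.

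The difference between these responses was tested in the same model. The comparison of day 0 genotypes, both WT responses and both differences share the WT day 0 libraries, so they are not independent of each other. At day 5 the response was smaller in KO for 3 of 31, against 0.531% of all genes: Eomes (-3.63 ± 0.79, adjusted p = 0.0353), Nkg7 (-3.62 ± 0.81, adjusted p = 0.0406) and Cd8b1 (-3.25 ± 0.74, adjusted p = 0.0471). At day 10 it was smaller for 7 of 31, against 3.12% of all genes, and larger for 0. They were Pdcd1 (-4.30 ± 1.05, adjusted p = 0.0242), Cd4 (-3.11 ± 0.74, adjusted p = 0.0216), Nkg7 (-3.30 ± 0.80, adjusted p = 0.0236), Il2rb (-2.75 ± 0.68, adjusted p = 0.0263), Gzmb (-4.85 ± 1.22, adjusted p = 0.0294), Cd2 (-3.24 ± 0.88, adjusted p = 0.0432) and Cd3g (-2.92 ± 0.81, adjusted p = 0.0496). Each gene named at either day was already called higher in KO at day 0, and 0 members were called lower in KO at day 10. A smaller response here means a smaller fold over the genotype's own day 0. In WT at day 0 the pooled counts were 4 for Pdcd1 and Eomes, 5 for Gzmb and 8 for Cd8b1. They were 11 for Cd2 and 12 for Nkg7, and at most 45, for Il2rb. Cd8a, which was called higher at both day 0 and day 10, was not called here, nor were Foxp3, Ncr1 and Tox. Markers of other cells also had smaller day 10 responses in KO, in 5 of 6 for leukocytes, 7 of 9 for macrophages, 2 of 8 for dendritic cells and 2 of 6 for neutrophils, and their part in the members' differences was not tested. WT day 10 replicates 2 and 3 were high here too. Summed macrophage markers were 1025, 2351, 2853 and 993 CPM in WT day 10 and 984 to 1311 in KO. Summed leukocyte markers were 375, 1010, 1854 and 327 CPM in WT day 10 and 384 to 583 in KO.

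These 2 counts changed much with single libraries, and the share of all genes called in each setting is not given. The day 10 count was 0 without WT day 0 replicate 1, 1 without KO day 10 replicate 1, and 2 without KO day 0 replicate 1 or 4. It was 3 without WT day 0 replicate 3, and 4 after leaving out any of WT day 0 replicates 2 and 4, KO day 0 replicate 2, WT day 10 replicate 3, and KO day 10 replicates 2 and 3. It was 17 without WT day 10 replicate 1, 16 without WT day 10 replicate 4, and 1 without WT day 10 replicates 2 and 3 together. DESeq2 called 16, while 0 passed with only the groups compared in the fit or with limma on log2(FPKM + 1), and 1 with limma on log2(FPKM + 0.1). The calls of Cd3g and Cd2 held in 8 and 12 of 33 alternative settings. The day 5 count was 0 without replicate 1, 2 or 4 of either genotype at day 0, without WT day 5 replicate 2 or 3, or when KO day 5 replicate 2, 3 or 4 was left out. It was 5 without WT day 5 replicate 4, 7 without WT day 10 replicate 3 and 10 without WT day 10 replicates 2 and 3.

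Levels between genes were compared per length, in the deposited FPKM (mean ± SD, n = 4). Nkg7 was the highest member in KO day 10 kidneys at 14.1 ± 2.99, followed by Cd3g at 7.95 ± 2.17 and Lck at 6.56 ± 1.26. In WT day 10 kidneys Cd3g (7.23 ± 7.59), Lck (5.81 ± 4.6), Nkg7 (5.55 ± 4.34) and Cd3d (5.06 ± 6.04) were the highest, with SDs as large as their differences. These means rest on replicate 3: without it they were 3.45 for Cd3g, 3.53 for Lck, 3.44 for Nkg7 and 2.04 for Cd3d, which then stood below Klrd1 at 3.16. Cd8a was at 0.926 ± 0.477 in WT and 3.82 ± 0.90 in KO, and Cd4 at 3.12 ± 2.88 and 3.24 ± 0.396. Without WT replicate 3 the WT means were 0.779 for Cd8a and 1.68 for Cd4. Foxp3 (0.28 ± 0.103) and Ncr1 (0.35 ± 0.256) were the lowest members at KO day 10. At day 0 in KO, Nkg7 was again first, at 5.16 ± 1.33, and Klrd1, at 0.762 ± 0.278, stood below Cd8a (1.4 ± 0.389), whereas at WT day 5 Klrd1, at 3.44 ± 0.702, stood above Cd8a (0.952 ± 0.408) and Cd4 (1.71 ± 0.58).

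Other lymphocyte genes and the signals around these cells were counted by list. Higher in KO at day 0 were 10 of 29 tested other T cell genes, 2 of 12 other NK genes, 6 of 11 chemokines and chemokine receptors, 3 of 14 cytokines and their receptors, and 2 of 9 ligands of the members, and 0 were lower in each, where 3.65% of all genes were higher. At day 10 of obstruction in WT, the numbers that rose were 24, 11, 11, 11 and 8 of the same lists, and in KO 14, 6, 6, 8 and 3, where 37.8% and 28.3% of all genes rose. In the difference between the day 10 responses 4, 2, 4, 4 and 3 were lower in KO and 0 higher, where 3.12% of all genes were lower.

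The genes with the lowest adjusted p in that last comparison are named by list. Among T cell genes, Havcr2, the checkpoint receptor Tim-3, had a difference of -3.10 ± 0.60 (adjusted p = 0.00945), and Il7r, the receptor of the survival cytokine IL-7, of -4.45 ± 0.92 (adjusted p = 0.0102). Tnfrsf9, the costimulator 4-1BB, had -5.54 ± 1.33 (adjusted p = 0.0223), and Grap2, an adaptor below the receptor, -1.86 ± 0.50 (adjusted p = 0.0439). Havcr2 and Grap2 were also higher in KO at day 0, by 1.74 ± 0.47 and 2.52 ± 0.39. Among NK genes Fcgr3, the Fc receptor of NK cells and macrophages, had -3.39 ± 0.65 (adjusted p = 0.00945), and Cd244 -3.30 ± 0.82 (adjusted p = 0.0268). Klrc1 and Klrg1 did not pass, with adjusted p of 0.0508 and 0.144. In the WT day 10 libraries Tnfrsf9 had 3.08, 50.4, 20.3 and 2.86 CPM and Havcr2 4.93, 20.9, 25.7 and 6.51. Fcgr3 had 67.9, 477, 382 and 66.6 CPM and Cd244 2.61, 14.7, 16.4 and 2.70. Replicate 2 was thus high in all of them, though its Cd3e was 2.08 CPM. The list names do not say which cells carry these differences, and this was not tested.

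Of the chemokine system, Ccl5, which draws effector T cells and macrophages, had -3.83 ± 0.93 (adjusted p = 0.0245). Ccr7, which guides naive T cells and dendritic cells to lymph nodes, had -2.16 ± 0.44 (adjusted p = 0.0102), and Cxcr6 -3.42 ± 0.93 (adjusted p = 0.0443). These 3 were higher in KO at day 0, by 3.81 ± 0.74, 2.65 ± 0.35 and 3.33 ± 0.74. In the cytokine list, Stat4, the factor below the IL-12 receptor, had -3.04 ± 0.66 (adjusted p = 0.0134), Il21r -2.77 ± 0.61 (adjusted p = 0.0144), Il2rg -2.84 ± 0.68 (adjusted p = 0.021) and Ebi3 -2.78 ± 0.73 (adjusted p = 0.0368). Of the ligands, Cd48, which binds Cd2 and Cd244, had -2.60 ± 0.48 (adjusted p = 0.00838), Cd86, a ligand of Cd28 and Ctla4, -2.12 ± 0.44 (adjusted p = 0.0104) and Cd274, the PD-1 ligand, -3.82 ± 0.99 (adjusted p = 0.0357). Cd80, the other Cd28 ligand, did not pass (-4.82 ± 1.37, adjusted p = 0.0572).

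Most of the differences called in these other lists rest on few libraries. Without WT day 10 replicate 3, Cd274 had -1.90 (adjusted p = 0.129), Cxcr6 -1.92 (0.0976), Ebi3 -1.85 (0.0828), Cd244 -2.86 (0.0637) and Grap2 -1.27 (0.0848), none of them called. Of the 16 called genes named, 9 did not pass without replicates 2 and 3 together: Cd244 (-1.54), Ccr7 (-1.98), Cxcr6 (-1.98), Stat4 (-1.81), Il21r (-1.63), Il2rg (-0.86), Ebi3 (-1.31), Cd86 (-1.45) and Cd274 (-0.49). Fcgr3, Havcr2 and Tnfrsf9 still passed, at -1.52, -1.78 and -2.87. All 16 missed the threshold with only the groups compared and passed it in DESeq2. The calls of Cxcr6, Grap2 and Cd274 held in 11, 12 and 16 of 33 settings, and the Grap2 difference was 0.0865 with limma on log2(FPKM + 1).

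Across the 24 libraries the gene most like Cd3e in log2 CPM was sought, as a description. The libraries share depth and group structure, and WT day 10 replicate 3 is high in most of these genes. Outside the set the highest Pearson r were those of Ctsw (0.953), a cathepsin of cytotoxic cells, the chemokine Cxcl9 (0.949), the adaptor Sh2d2a (0.948), Gimap3 (0.931) and H2-T10 (0.927). Ikzf3 (0.926), Nlrc5 (0.925), Ms4a4b (0.923), Cxcr6 (0.922) and Iigp1 (0.921) followed. Within the set Cd6 (0.965), Cd3g (0.960), Cd2 (0.953), Cd3d (0.946) and Cd5 (0.933) were the closest. The least alike were Ncr1 (0.440), Tox (0.590), Klrd1 (0.657), Ctla4 (0.724) and Eomes (0.750).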

How the data were processed

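Kidney RNA of 24 libraries was sequenced on an Illumina NextSeq500 from stranded TruSeq mRNA libraries, per the labels' protocols. Per the submitters' processing notes the tools were bcl2fastq 2.16, STAR 2.5 and Cufflinks, with the mm9 genome; their roles, the read counter, the annotation and the use of strand are not given in the sources used here, so reads of overlapping or antisense genes cannot be told apart. The deposited counts are whole reads per gene, and the deposited FPKM values (Cufflinks is named in the notes) are per length and depth. All tests used the counts; FPKM served to compare levels between genes, and for ratios and limma as alternatives.

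Genes were kept by filterByExpr (minimum count 10, minimum total 15), scaled by TMM and fitted with edgeR 4.0.16 in R 4.3.3 (6 group means, 24 libraries, 18 residual degrees of freedom, robust quasi-likelihood test). Benjamini-Hochberg adjustment ran over 15080 genes for each comparison, with 0.05 as the threshold. Fold changes are log2, and ± after one is its SE, its size over the square root of F. Ratios to Cd3e used exact permutation tests. Counting intervals are exact, at 95%, and cover counting error only. Every row of the count table carries a gene symbol.

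The members and lists were chosen with earlier results of these data known. By rule, values in every library are given for Cd3e, Cd4, Cd8a, Foxp3, Ncr1, Gzmb, Ifng and members called between genotypes or in the difference between responses, other lists by counts and up to 4 genes of lowest adjusted p in the day 10 difference (1 of these is not reported here), and likeness to Cd3e among genes whose mean log2 CPM (prior count 2) is 0 or more. Groups and replicate numbers come from the labels. Same-numbered libraries deviated together, all 4 pairs with r above 0.1, for KO against WT at day 10 (r from 0.141 to 0.306) and WT day 10 against day 5 (0.105 to 0.361). An alternative therefore added the replicate number as a block to the fit of all 24 libraries. That block is common to all 6 groups, and no fit paired these 2 comparisons alone. Elsewhere libraries share only a number, and for KO against WT at day 0 r ran from -0.329 to 0.0817. The other alternatives were DESeq2 1.42.0 (also its size factors within edgeR), limma 3.58.1 on log2(FPKM + 1) and log2(FPKM + 0.1), other filters, only the groups compared, each library left out, and WT day 10 replicates 2 and 3 left out together.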

Additional observations from a re-analysis of the deposited data

Results flagged for a closer look

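Of 186 sets of 4 libraries (31 genes in 6 groups), 20 held a library far from the other 3 by Dixon's criterion. Its rate of about 1 in 20 by chance holds for normal values. Many of these CPM values are near 0, and a set with 1 count in all is always flagged. The 20 sets therefore cannot be set against that rate. WT day 10 replicate 3 accounted for 12 of the 20. In that library the receptor chains Cd3d, Cd3e, Cd3g and Cd247 stood at 22.9, 18.3, 22.6 and 12.3 CPM. The kinases Lck and Zap70 stood at 35.4 and 13.4, the receptors Cd2, Cd5, Cd4 and Il2rb at 10.8, 20.3, 31.4 and 33.0, and the effectors Ifng and Prf1 at 5.63 and 2.42 CPM. The same library had 6424 CPM over the neutrophil markers. Replicate 2, which shared the neutrophil markers at 3783 CPM, was not far from the others in these genes.

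KO day 10 replicate 4 was high for Klrk1 (12.1 CPM) and Ncr1 (1.25 CPM), both NK receptors. WT day 5 replicate 2 was high for Cd8a (5.96 CPM) and WT day 5 replicate 4 for Il2rb (6.46 CPM). Gzmk was low in KO day 0 replicate 3 (0.990 CPM) and KO day 5 replicate 3 (0.531 CPM). The single Ctla4 count of the WT day 0 group lay in replicate 1 (0.0865 CPM) and the single Ifng count in replicate 3 (0.0897 CPM).

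The response to obstruction differed between genotypes by the model's own test for 3 genes at day 5, Eomes (-3.63), Nkg7 (-3.62) and Cd8b1 (-3.25), as log2 differences KO minus WT. At day 10 it differed for 7: Pdcd1 (-4.30), Cd2 (-3.24), Nkg7 (-3.30), Gzmb (-4.85), Cd4 (-3.11), Il2rb (-2.75) and Cd3g (-2.92). Each was smaller in KO as a fold over its own day 0, where the same genes were already called higher in KO. The day 0 libraries enter both differences.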

How the results depend on the processing

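With 1 library left out, the count of members called ran from 11 to 25 for KO against WT at day 0, 0 to 6 at day 10, 16 to 27 for the WT day 5 response, 27 to 30 for day 10, 0 to 2 and 6 to 19 for the KO responses, 0 to 19 for WT day 10 against day 5, and 0 to 7 and 0 to 17 for the response differences at day 5 and day 10. The replicate block, common to all groups, called 0 at KO against WT day 10, 5 for WT day 10 against day 5 and 1 for the day 5 difference. It changed no other count by over 1.5 times. Fitting only the groups compared gave 0 at KO against WT day 10, 4 and 25 for the KO responses, 0 for WT day 10 against day 5, and 9 and 0 for the differences. Without WT day 10 replicates 2 and 3 these counts were 0, 2, 22, 0, 10 and 1, and KO day 10 against day 5 had 1. With limma on log2(FPKM + 1) KO against WT day 0 had 5, the WT day 5 response 14, the KO responses 7 and 21, WT day 10 against day 5 had 2, and the differences 0 and 0; with log2(FPKM + 0.1) the last 5 were 7, 21, 2, 1 and 1. DESeq2 called 16 in the day 10 difference. The other combinations of count and setting stayed within 1.5 times, and the causes were not tested. Shares of all genes called in these settings are not given. A change in the members alone thus cannot be told apart from one over all genes.

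Directions turned as follows. Cd3e at KO against WT day 10 was 0.12 with the replicate block, 1.27 without WT day 10 replicate 3, 0.12 and 0.04 without KO replicates 1 and 2, 1.14 without both WT libraries, and 0.42 and 0.63 with limma at the pseudocounts of 1 and 0.1. Cd4 was 0.86, 0.83, 0.25 and 0.39 without WT replicate 3, without both, and with limma. The Grap2 difference was 0.0865 with limma at 1. In WT day 10 against day 5, Gzmb was -0.32 without both libraries and Ifng -0.14 without replicate 3 and -0.0477 without both. Of the ratios to Cd3e, only differences that were not called turned. With Lck in place of Cd3e the differences were 0.0424 for Cd4 at day 10, 0.18 for Cd8a at day 5 and 0.26 for Foxp3 at day 10. From FPKM they were 0.0330 for Cd8a and -0.32 for Foxp3 at day 5 and -0.0922 for Ncr1 at day 10, which was -0.86 without both libraries. With 1 library left out, the fold of Cd3e at day 10 ran from -0.35 to 1.27, that of Cd4 from -0.35 to 0.86 and the Ifng rise from day 5 to day 10 from -0.14 to 3.83. Among the ratios Cd8a ran from -0.14 to 0.0475 at day 5, Foxp3 from -0.17 to 0.61 and from -0.65 to 0.36, and Ncr1 from -0.95 to 0.22 and from -0.27 to 1.18 at day 5 and day 10. The day 10 Cd8a ratio ran from 1.00 to 1.72. For single genes, 4519 combinations kept their direction and side of the threshold, 646 lost and 58 gained the call, and 15 turned, leaving out those where DESeq2 gave no adjusted p. Depth limits Foxp3, Ncr1, Ctla4 and Ifng, which have few counts at day 0.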
